A study of Rattus norvegicus with 4 samples.

Results

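Mitochondrial ribosomal protein genes were examined at 2 culture temperatures in RTEC11 cells, an epithelial line from the rat trachea. The genes were chosen by a rule on their names, with earlier results of these data known. The rule took probe sets annotated to exactly 1 gene symbol that begins with Mrpl (large subunit) or Mrps (small subunit) followed by a digit. Of 12783 probe sets with 1 symbol, 82 met this rule, 27 for the small and 55 for the large subunit. They stand for 71 of 10411 genes, 26 Mrps and 45 Mrpl, and all 71 lay above the limit for dim genes and were tested.

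Mitochondria keep their own ribosomes, which translate the few proteins encoded in mitochondrial DNA, all of them core subunits of the respiratory chain and ATP synthase. The RNA of these ribosomes comes from the mitochondrial genome, whereas every protein of both subunits is encoded in the nucleus, made in the cytosol and imported. The small subunit reads the messenger RNA, the large subunit joins amino acids, and both combine relatives of bacterial ribosomal proteins with proteins found only in mitochondria.

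RTEC11 was derived from transgenic rats carrying a simian virus 40 large T-antigen that is temperature-sensitive, and both groups carry that transgene. The permissive group was kept at 33 °C and the nonpermissive group at 39 °C, for 3 days each, with 2 samples a group and 1 array a sample. Temperature and antigen activity change together in this design and cannot be told apart, and the cells are a single line. The labels do not say whether the 2 samples of a group were separate cultures, so the p-values reflect nothing beyond how these arrays vary, and that variation may be technical.

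The trimmed mean of the deposited intensities was 500.1 to 500.2 on every array, and their median was 152.7 and 155.6 at 33 °C and 174.3 and 171.1 at 39 °C. Levels below are log2(intensity + 16) after quantile normalization, a change is 39 °C minus 33 °C on that scale, and a gene was called where limma's adjusted p over all 7016 tested genes was under 0.05. The summed intensity of 7 epithelial markers was 57401 and 61224 at 33 °C and 68015 and 67339 at 39 °C, with 6 of 7 above the dim limit of 6.60 and Krt5 under it. The markers did not move alike: Krt19 (0.77), Epcam (0.53) and Krt8 (0.23) rose and Krt18 fell by 0.36. Krt14 (-0.08) and Cdh1 (0.09) were not called. With spike-in scaling 3 epithelial markers fell and 1 rose. Of 6 fibroblast markers 1 lay above the limit, Col3a1, which rose by 1.61, and the list summed to 192 and 161 at 33 °C against 394 and 281 at 39 °C. Of 3 endothelial markers with a probe set 0 lay above the limit, and of 5 blood cell markers 1 did, Cd14, whose level of 9.71 at 33 °C was 9.44 at 39 °C (-0.27, not called). Smooth muscle markers summed to 330 and 466 at 33 °C against 631 and 514 at 39 °C, with 2 markers above the limit. Des rose by 0.83, a call lost with spike-in scaling (0.58) and with no limit for dim genes. That call was also lost without permissive replicate 1 (0.64) or nonpermissive replicate 1 (0.62). Acta2, at 8.23 and then 7.92, had a change of -0.32 that was not called. The part of these markers in the results was not tested, and in RNA from whole cultures fewer cells of a type and less RNA per cell cannot be told apart.

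Most mitochondrial ribosomal protein genes were lower at 39 °C. Of the 71, 44 fell (62.0%), 7 rose (9.86%) and 20 were not called, where 26.1% of all tested genes fell and 23.1% rose, 49.1% in either direction. The median change was -0.46, against -0.04 over all tested genes. The fall was led by Mrpl35 (-1.35), Mrps11 (-1.21), Mrpl38 (-1.21), Mrpl40 (-1.05) and Mrps2 (-1.02). The rises were smaller and were not kept under every scaling, the largest being Mrps21 (0.59) and Mrps24 (0.58). Changes were below 0 in 53 members and above 0 in 18.

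The falls were modest in size, and not every call held when an array was left out, as given below. All 51 called members had groups that did not overlap, meaning that both 39 °C arrays lay on the same side of both 33 °C arrays. Such separation goes largely with the call itself, since overlapping groups seldom give a small p, so it adds little to the calls. Over all members the groups were apart in 48 with 39 °C lower and in 9 with 39 °C higher, and overlapped in 14, whereas 40% and 35% of all tested genes were apart in those directions, 75.1% together. A fall of at least 0.5 that was called was found in 33 members, and 18.1% of all tested genes met the same rule. In 5 members the fall was at least 1, and 0 members rose by 1 or more.

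**Figure D1:**
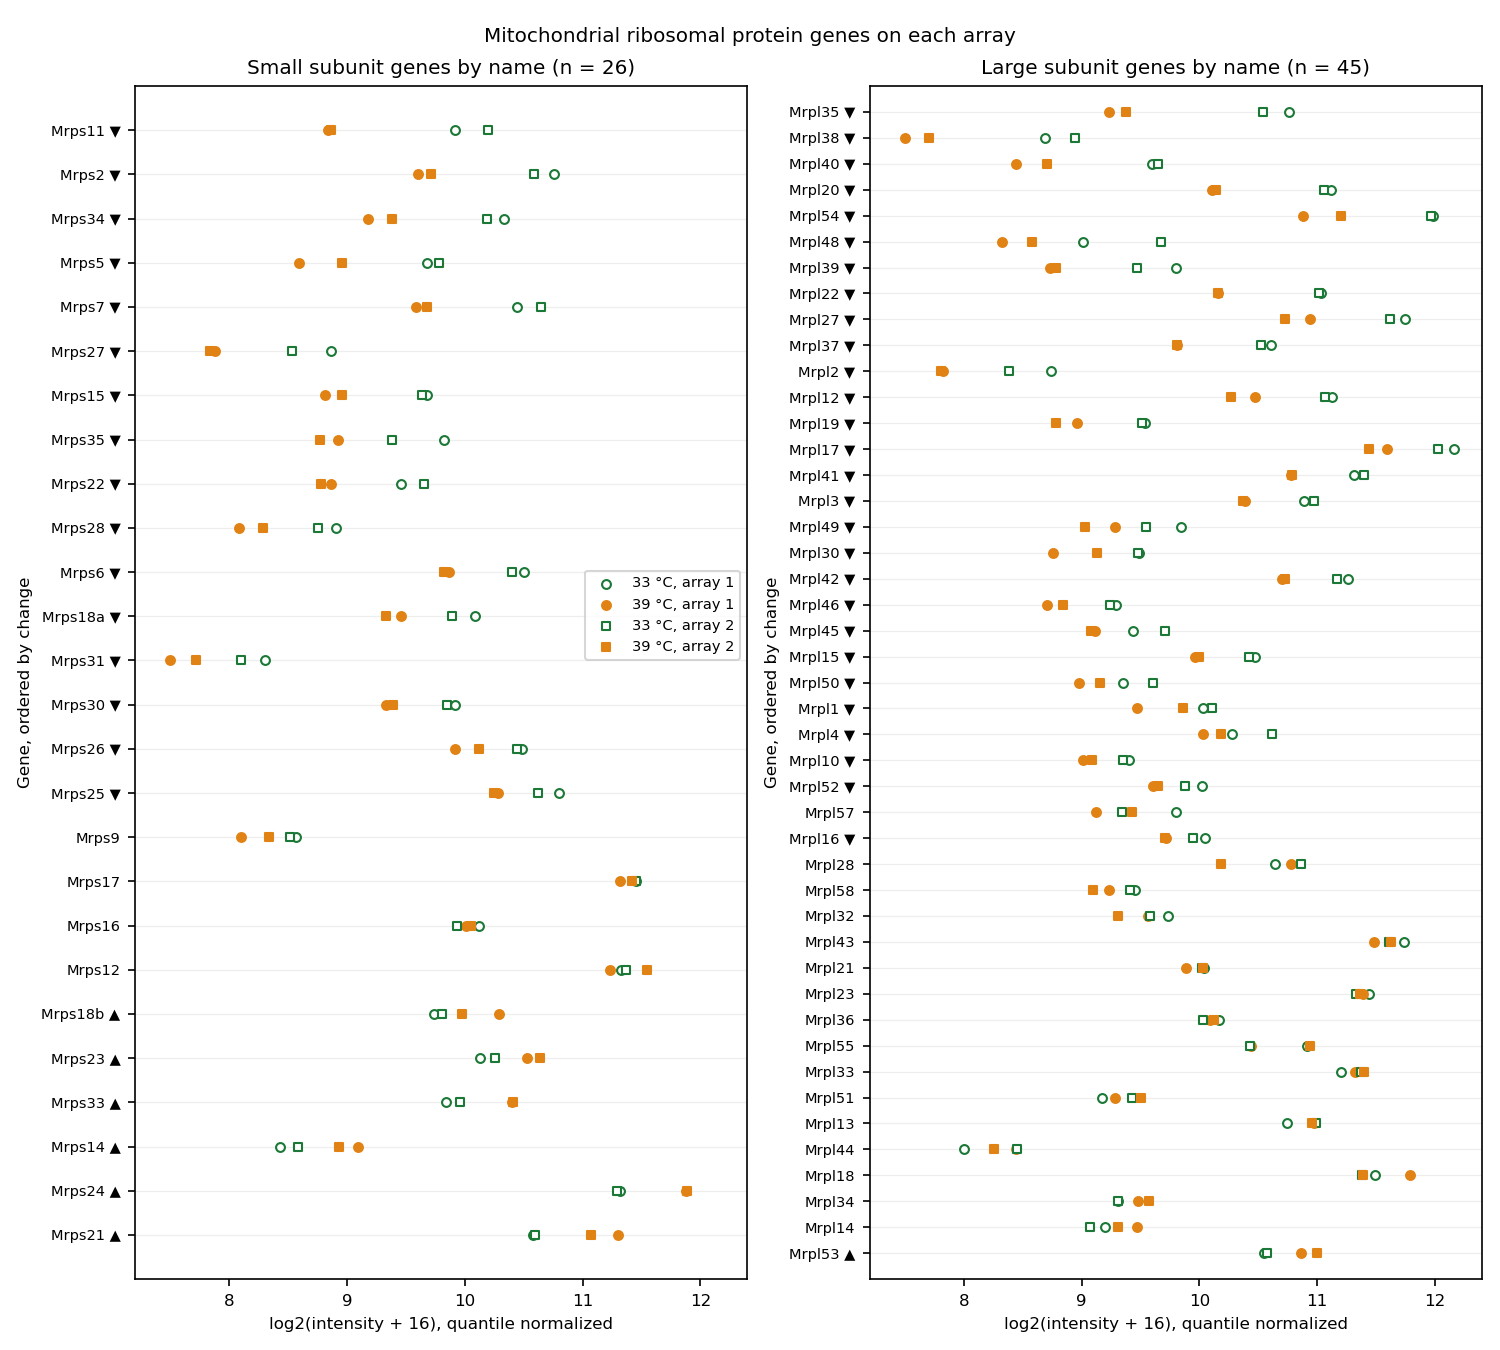
Level of each of the 71 genes on each of the 4 arrays, as quantile-normalized log2(intensity + 16), for 26 small subunit genes (left) and 45 large subunit genes (right), ordered by change. Open symbols are 33 °C arrays and filled symbols 39 °C arrays, circles replicate 1 and squares replicate 2; triangles beside a name mark genes called lower (44, pointing down) or higher (7, pointing up), and the filled symbols lie to the left of the open ones in most rows.

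The scale of the arrays set how many members were called, but under each of the 4 scalings more members fell than rose. With the deposited scale 39 fell and 7 rose, where 23.7% of all tested genes fell and 26% rose. With each array centred on its median 49 fell and 4 rose (33.1% and 19.2% of all genes). With arrays scaled to their poly-A spike-in controls 58 fell and 0 rose by limma's adjusted p, and 0 were higher at an unadjusted p under 0.05 (47.9% and 11.4% of all genes). The median change of all tested genes was -0.04, 0.02, -0.13 and -0.36 under quantile, deposited, median and spike-in scaling, so a member's change is best read against that shift.

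**Figure D2:**
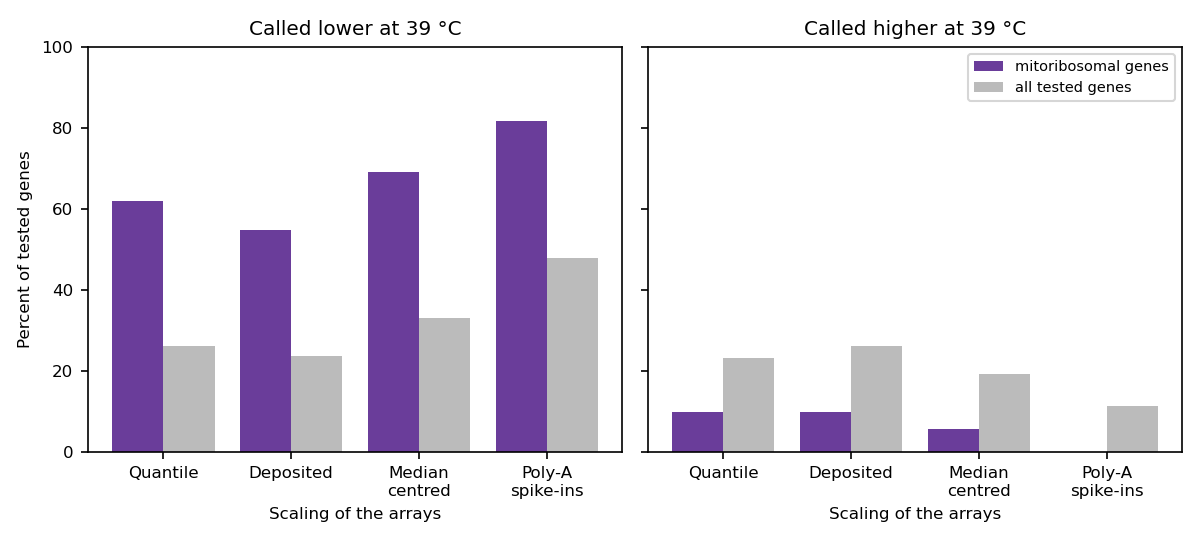
Percent of the 71 mitochondrial ribosomal genes (purple) and of all tested genes (grey) called lower (left) or higher (right) at 39 °C under 4 scalings of the arrays. The purple bars exceed the grey ones among lower calls under every scaling, from 39 to 58 members, and fall short of them among higher calls, from 7 members to 0.

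The probe sets of these genes were bright, with a median level of 9.95 against 9.06 over all tested genes, so each member was also set beside all other tested genes within 0.25 of its level, between 201 and 903 genes. The median change of such genes, taken as the median over members, was -0.05. The median change of the members lay 0.41 below it (a difference of medians of -0.410). In 52 members the change was below the median of the like-bright genes, 18 of them small and 34 large subunit genes. On average 30% of the like-bright genes fell and 26.2% rose, which over 71 genes would come to 21.3 falls and 18.6 rises, beside the 44 and 7 counted. For the small subunit the like-bright shares correspond to 7.63 falls and 6.72 rises, beside 16 and 6. For the large subunit they correspond to 13.7 falls and 11.8 rises, beside 28 and 1.

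**Figure D3:**
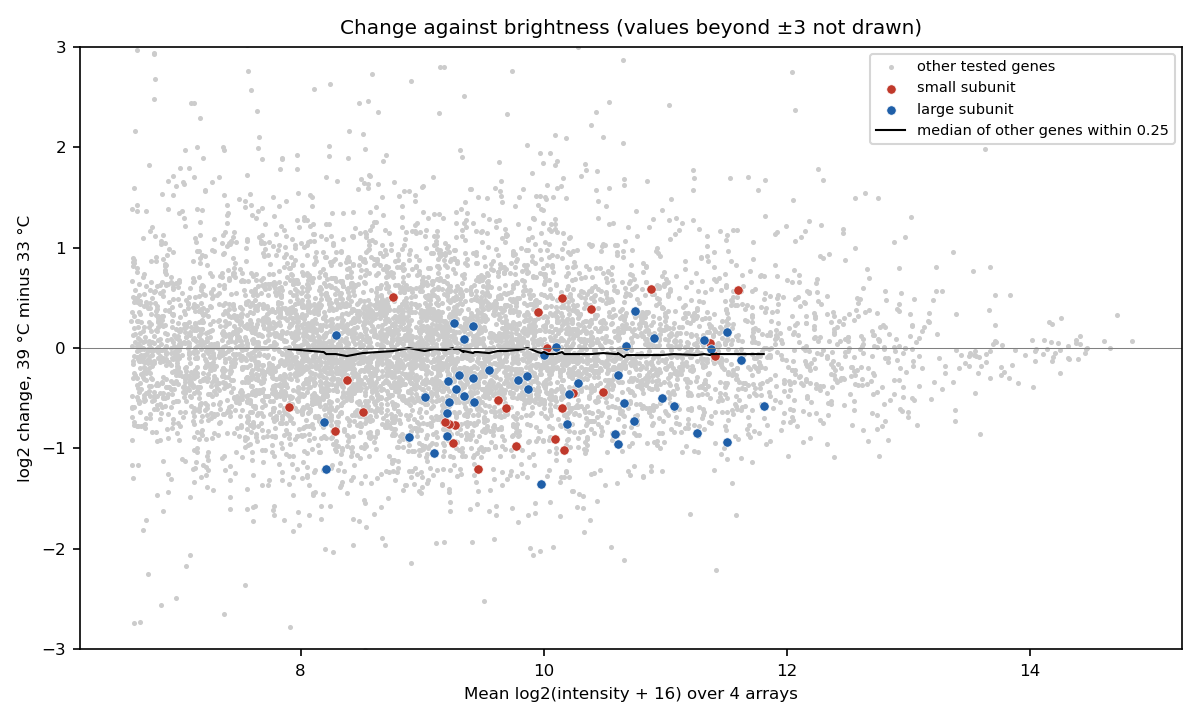
Change in log2(intensity + 16), 39 °C minus 33 °C, against the mean level over 4 arrays, for small subunit genes (red), large subunit genes (blue) and other tested genes (grey); values beyond 3 in either direction are not drawn. The black line is the median of other genes within 0.25 of a member's level; it stays near -0.05, and 52 of 71 members lie below their own like-bright median.

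After quantile normalization the subunits fell in nearly equal shares and differed more in their rises. Among small subunit genes 16 of 26 fell (61.5%), 6 rose (23.1%) and 4 were not called. Among large subunit genes 28 of 45 fell (62.2%), 1 rose (2.22%) and 16 were not called. Of all tested genes 26.1% fell and 23.1% rose, so the small subunit rose in the same share as all genes. Rises in the small and large subunit were 6 and 1 on the deposited scale, 4 and 0 with median centring and 0 and 0 with spike-in scaling. The median change was -0.555 for the small subunit (quartiles -0.77 and 0.03, range -1.21 to 0.59) and -0.408 for the large (quartiles -0.73 and -0.07, range -1.35 to 0.37). The small subunit was thus more spread out, with most genes either well below 0 or called higher. Set against each gene's mean over the arrays, the median small subunit gene stood at 0.30 and 0.20 on the 33 °C arrays and at -0.28 and -0.23 on the 39 °C arrays. The median large subunit gene stood at 0.23 and 0.21, then at -0.24 and -0.20. The difference of the medians, -0.147, moved to -0.055 when Mrps18a and Mrps30, which sit in the large subunit in human structures despite their names, were counted there, with 14 of 24 small and 30 of 47 large subunit genes then lower. Leaving out permissive replicate 1 gave -0.039, and whether the subunits differ was not tested.

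Among small subunit genes the largest fall was that of Mrps11, a relative of bacterial S11 on the platform of the subunit. Its level was 9.92 and 10.20 at 33 °C and 8.84 and 8.86 at 39 °C, from deposited intensities of 943 and 1146 against 457 and 465. The groups lay far apart, a change of -1.21 ± 0.13 (SE), or 2.32-fold lower, with an adjusted p of 1.78e-05 by limma. Mrps2, a relative of bacterial S2, stood at 10.76 and 10.59 at 33 °C and at 9.60 and 9.71 at 39 °C. It fell by 1.02 (SE 0.11, adjusted p 2.12e-05 by limma), and both 39 °C arrays were below both 33 °C arrays. Mrps34, a protein of mitochondria alone that the mouse small subunit needs for its stability, stood at 10.33 and 10.19, then at 9.18 and 9.38, a fall of 0.98. Mrps5, whose bacterial relative S5 bears on the accuracy of decoding, stood at 9.68 and 9.78, then at 8.59 and 8.96. It fell by 0.95, and the 39 °C arrays differed from each other more than the 33 °C arrays did.

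Mrps7, whose bacterial relative S7 begins the assembly of the subunit's head, stood at 10.44 and 10.65 at 33 °C and at 9.59 and 9.68 at 39 °C, a fall of 0.91 without overlap. Mrps27, a pentatricopeptide-repeat protein that binds mitochondrial ribosomal RNA in human cells, stood at 8.86 and 8.53, then at 7.88 and 7.84, a fall of 0.83 (adjusted p 0.00141 by limma). Among the probe sets that represented a gene, the dimmest of the small subunit was that of Mrps31, a protein of mitochondria alone, at 8.30 and 8.10, then at 7.50 and 7.72. Its fall of 0.59 (adjusted p 0.017 by limma) lost its call without permissive replicate 1 (-0.48) and without nonpermissive replicate 1 (-0.48). Mrps31 was also not called on the deposited scale or with no limit for dim genes. The other small subunit genes that fell were Mrps15 (-0.77), Mrps35 (-0.76), Mrps22 (-0.74), Mrps28 (-0.64), Mrps6 (-0.60), Mrps18a (-0.60), Mrps30 (-0.52), Mrps26 (-0.45) and Mrps25 (-0.44). The call of Mrps26 was lost without nonpermissive replicate 1 and with the mean of its probe sets.

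Among large subunit genes the largest fall, and the largest of all 71, was that of Mrpl35, a relative of bacterial L35. Its level was 10.76 and 10.54 at 33 °C and 9.23 and 9.38 at 39 °C, from deposited intensities of 1738 and 1474 against 597 and 664. The change was -1.35 ± 0.12 (SE), 2.54-fold lower, with an adjusted p of 4.92e-06 by limma, and the gap between groups was several times the gap within them. Mrpl38, a protein of mitochondria alone in the central protuberance of the large subunit, stood at 8.69 and 8.94, then at 7.50 and 7.70. It fell by 1.21 (SE 0.16, adjusted p 1.13e-04 by limma) with no overlap. Mrpl20, whose bacterial relative L20 is needed early in large subunit assembly, stood at 11.12 and 11.06, then at 10.11 and 10.14, a fall of 0.96. Mrpl54, found in mitochondria and not in bacteria, stood at 11.98 and 11.97, then at 10.88 and 11.20, a fall of 0.94. Mrpl48, likewise without a bacterial relative, stood at 9.01 and 9.67, then at 8.32 and 8.58. It fell by 0.89 (adjusted p 0.00283 by limma), and its 33 °C arrays differed by more than those of the genes before it.

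Among the probe sets that represented a gene, the dimmest of the large subunit was that of Mrpl2, whose bacterial relative L2 lies by the peptidyl transferase centre, at 8.74 and 8.38 at 33 °C and 7.82 and 7.81 at 39 °C. It fell by 0.74 (adjusted p 0.00383 by limma). The brightest was that of Mrpl17, a relative of bacterial L17, at 12.16 and 12.03, then at 11.59 and 11.44, a fall of 0.58 without overlap, so genes at both ends of that range fell. Other large subunit genes that fell include Mrpl39 (-0.88), Mrpl22 (-0.86) and Mrpl27 (-0.85). Mrpl12, a relative of the stalk protein that recruits translation factors, fell by 0.73, and Mrpl3, a relative of bacterial L3, fell by 0.55. Mrpl19 (-0.65), Mrpl41 (-0.58), Mrpl30 (-0.54), Mrpl42 (-0.50), Mrpl46 (-0.49), Mrpl45 (-0.48), Mrpl15 (-0.46), Mrpl1 (-0.41), Mrpl4 (-0.35), Mrpl10 (-0.33) and Mrpl16 (-0.28) completed the falls of genes with a single probe set. Mrpl10 and Mrpl16 lost their calls whichever array was left out, Mrpl4 without either nonpermissive array or permissive replicate 2, Mrpl1 without permissive replicate 2 or nonpermissive replicate 1, Mrpl30 and Mrpl46 without nonpermissive replicate 1, and Mrpl45 without permissive replicate 2. On the deposited scale Mrpl10 and Mrpl16 were also not called. With no limit for dim genes, or with no intensity trend in the fit, Mrpl1, Mrpl4, Mrpl10 and Mrpl16 were not called.

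Of the 7 members that rose, 6 belong to the small subunit by name, and none of the 7 was called with spike-in scaling, where Mrpl53 turned to -0.02. Mrps21, a relative of bacterial S21, stood at 10.58 and 10.60 at 33 °C and at 11.30 and 11.07 at 39 °C, from intensities of 1519 and 1530 against 2432 and 2097. It rose by 0.59 ± 0.10 (SE), 1.51-fold, with an adjusted p of 6.67e-04 by limma, and its groups did not overlap. Mrps24, a relative of bacterial S3 and the brightest small subunit probe set, stood at 11.32 and 11.29, then at 11.88 and 11.89. It rose by 0.58 ± 0.09 (SE), with an adjusted p of 2.07e-04 by limma and a gap far wider than that between replicates. Mrps14, a relative of bacterial S14, stood at 8.43 and 8.58, then at 9.09 and 8.93, a rise of 0.51 that lost its call without nonpermissive replicate 1 (0.43). Mrps33, a protein of mitochondria alone, stood at 9.84 and 9.96, then at 10.40 and 10.41, a rise of 0.50 without overlap. With spike-in scaling the changes of Mrps21, Mrps24, Mrps14 and Mrps33 were 0.18, 0.10, 0.22 and 0.14.

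Mrps23, a protein of mitochondria alone, stood at 10.13 and 10.26 at 33 °C and at 10.53 and 10.64 at 39 °C, a rise of 0.39. Mrps18b stood at 9.74 and 9.81, then at 10.29 and 9.98, a rise of 0.36 (adjusted p 0.0303 by limma), and Mrpl53, the large subunit gene among the rises, at 10.55 and 10.57, then at 10.86 and 11.00, a rise of 0.37. The groups of these 3 genes did not overlap, but with median centring their changes were 0.24, 0.24 and 0.21 and none was called. Mrps23 also lost its call without permissive replicate 1 (0.32) or nonpermissive replicate 2 (0.33), Mrps18b without permissive replicate 1 (0.32) or nonpermissive replicate 1 (0.21), and Mrpl53 without nonpermissive replicate 2 (0.30). The call of Mrps18b was also lost with no limit for dim genes and with no intensity trend in the fit. Mrps18a and Mrps18b are paralogs, both related to bacterial S18, and were called in opposite directions, at -0.60 and 0.36.

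The 20 members that were not called ranged from -0.32 to 0.25, and 12 members lay within 0.15 of 0. On the small subunit side these were Mrps9 (-0.32), Mrps17 (-0.08), Mrps16 (0.00) and Mrps12 (0.05), the last a relative of bacterial S12 of the decoding centre. On the large subunit side Mrpl23 stood at -0.01, Mrpl36 at 0.01, Mrpl55 at 0.02, Mrpl33 at 0.08 and Mrpl13 at 0.10. Mrpl44, which carries a fold like that of RNase III, had a change of 0.13, and Mrpl58, a release factor homologue built into the large subunit, one of -0.27. Members with a bacterial relative, as assigned from the naming of mitochondrial ribosomal proteins, numbered 42, of which 23 fell and 4 rose with a median change of -0.34. Of the 29 without such a relative 21 fell and 3 rose, with a median of -0.50. No difference between these classes was tested.

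In 8 members more than 1 probe set measured the gene, and the probe sets did not always move alike. For Mrpl37, found in mitochondria and not in bacteria, the probe set used stood at 10.61 and 10.52 at 33 °C and at 9.81 and 9.81 at 39 °C, a fall of 0.76, and a further one changed by -0.60. Mrpl40, likewise of mitochondria alone, stood at 9.60 and 9.65, then at 8.44 and 8.71, a fall of 1.05. Its other probe set, close to the dim limit at a mean of 6.89, changed by 0.04. Mrpl49 stood at 9.84 and 9.55, then at 9.28 and 9.03, and its fall of 0.54 was no longer called once permissive replicate 1 (-0.39) or nonpermissive replicate 2 (-0.42) was dropped. Its further probe set stood at a change of -0.44. Mrpl50, at 9.35 and 9.61, then at 8.98 and 9.16, fell by 0.41, its other probe set changed by 0.16, and with the mean of its probe sets its change was -0.12 and not called. Mrpl52, at 10.02 and 9.88, then at 9.61 and 9.65, fell by 0.32 with its other probe set at 0.14, and the mean gave -0.09, again not called. Both also lost their calls without single arrays, Mrpl50 without permissive replicate 2 (-0.28) or nonpermissive replicate 1 (-0.32) and Mrpl52 without either nonpermissive array (-0.30 and -0.34) or permissive replicate 1 (-0.26). Mrpl50 and Mrpl52 were also not called on the deposited scale or with no intensity trend in the fit, nor was Mrpl50 with no limit for dim genes. Mrpl57 stood at 9.80 and 9.34, then at 9.12 and 9.43, with overlapping groups, and its probe sets gave changes of -0.30 and -0.29, neither called. Mrpl51 stood at 9.17 and 9.43, then at 9.28 and 9.50, also overlapping, and its probe sets gave 0.09, -0.10, -0.07 and -0.19. The further probe sets of Mrps26 (-0.19) and Mrpl37 (-0.09) lay under the dim limit. With every probe set tested on its own, a setting chosen after seeing the data, 45 of 80 member probe sets fell and 7 rose, where 24.7% and 22.5% of all probe sets tested did.

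The start regions of these genes are shown because ETS-family factors, among them GABP, and YY1 and NRF1 are known activators of nuclear genes for mitochondrial proteins. Promoter windows from RefSeq (assembly GRCr8), reaching from 250 bases before each start to a short way past it, were matched for 57 of the 71 genes. The ETS core CCGGAAG, searched on both strands, was held by 33.3% of the 57, by 20.9% of 5957 tested genes and by 9.63% of all 27457 genes with a window. It was held by 31.4% of members that fell, 50% of the 6 that rose and 31.2% of those not called, so members of each call held it. The YY1 motif AGATGGC was held by 24.6% of members, 9.42% of tested genes and 7.17% of all genes, and by 11 of 35 members that fell, 1 of 6 that rose and 2 of 16 not called. The NRF1 motif GCATGCG was held by 10.5%, 7.05% and 3.70% of members, tested genes and all genes, and the E-box CACGTG, the motif of MYC among others, by 8.77%, 10.5% and 7.08%. These shares are descriptions of letters in a window, with no test.

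The lines below give the surroundings of the ETS core in the 4 called members with the largest falls that hold it before their start, and in Mrpl53, the member that rose and holds it there, to show that the same core stands before genes of either call. Capitals mark the core or its reverse complement, each sequence reads 5′ to 3′ on the gene's strand. Mrpl48 is at chr1:164351416-164351482 (minus strand), Mrpl27 at chr10:80092254-80092320 (plus), Mrps27 at chr2:32474128-32474194 (plus), Mrps18a at chr9:22367382-22367448 (minus) and Mrpl53 at chr4:117172957-117173023 (plus).
Mrpl48: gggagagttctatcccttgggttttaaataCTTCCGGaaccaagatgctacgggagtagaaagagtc
Mrpl27: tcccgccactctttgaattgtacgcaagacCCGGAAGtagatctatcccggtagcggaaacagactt
Mrps27: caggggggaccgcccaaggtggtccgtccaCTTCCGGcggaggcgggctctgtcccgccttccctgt
Mrps18a: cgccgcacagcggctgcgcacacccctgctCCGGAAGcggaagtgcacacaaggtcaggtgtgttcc
Mrpl53: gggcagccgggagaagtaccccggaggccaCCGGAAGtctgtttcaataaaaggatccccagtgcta

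A start on the opposite strand within 1000 bases, facing away, was found for 16 of the 57 members (28.1%) and for 18.3% of the tested genes with a window. Among these, Mrps11 and Mrpl46 face away from each other across 233 bases at chr1:142117031-142117263, so a small and a large subunit gene share 1 start region. Both fell, Mrps11 by 1.21 and Mrpl46 by 0.49, and the region, shown on the plus strand because it lies between both starts, holds none of the 4 motifs. The promoter window of Mrpl46 does hold the YY1 motif, not wholly within the bases shown, and Mrpl46 is counted with that motif above.
Mrpl46 to Mrps11: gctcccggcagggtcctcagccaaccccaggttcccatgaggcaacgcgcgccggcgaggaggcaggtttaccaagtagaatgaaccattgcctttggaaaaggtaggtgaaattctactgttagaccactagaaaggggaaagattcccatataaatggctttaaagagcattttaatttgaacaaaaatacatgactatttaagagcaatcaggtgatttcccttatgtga
Neighbours of this kind did not always share a call. For 9 of the 16 members the neighbour was tested, and Mrps11 and Mrpl46 count as 2 of these. Calls were opposite for 2 members, and in the remaining tested pairs 1 gene was not called. Mrpl2 fell by 0.74 while its neighbour Klc4 rose by 0.63, and Mrps18b rose by 0.36 while Ppp1r10 fell by 0.48. The call of Klc4 was lost with spike-in scaling (0.41) and without either nonpermissive array (0.73 and 0.55) or permissive replicate 1 (0.53), and that of Ppp1r10 without permissive replicate 1 (-0.37) or nonpermissive replicate 2 (-0.39).

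Genes that work with the mitochondrial ribosome were followed in lists. In 6 lists there were 109 gene symbols, some of them former names of genes already counted. These lists cover ribosomal proteins under other names, assembly, translation factors, tRNA synthetases, mitochondrial DNA upkeep and RNA processing, and 51 genes were tested. Of these 20 fell (39.2%), beside 26.1% of all tested genes, and the median change was -0.27. By limma's adjusted p 0 rose, beside 23.1% of all tested genes, with 1 higher at an unadjusted p under 0.05. On the deposited scale 16 fell and 2 rose, with median centring 21 fell and with spike-in scaling 36 fell, where 23.7%, 33.1% and 47.9% of all tested genes did. Closest to the members are ribosomal proteins under other names, of which 4 of 5 tested fell. Gadd45gip1, a large subunit protein at the exit of the peptide tunnel, fell by 0.90 ± 0.11 (SE), and the pentatricopeptide-repeat protein Ptcd3 of the small subunit by 0.53 ± 0.14 (SE). Ptcd3 was not called once permissive replicate 1 (-0.40) or nonpermissive replicate 2 (-0.36) was dropped.

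The share that fell in the other 5 lists ran from 23.1% to 50%, beside 26.1% of all tested genes. Among 13 genes of assembly and ribosomal RNA modification 3 fell (23.1%), led by the RNA methyltransferase Nsun4 (-1.48) and Rcc1l (-1.08). Of 8 translation factors 4 fell (50%), among them Slirp (-0.63) and the elongation factor Gfm1 (-0.57). Slirp is the partner of Lrpprc in holding mitochondrial messenger RNA. Gfm1 was not called on the deposited scale (-0.47), with no limit for dim genes or with no intensity trend in the fit. Its call was also lost once permissive replicate 1 (-0.52) or nonpermissive replicate 1 (-0.24) was dropped. Of 14 RNA processing genes 6 fell (42.9%), the largest being the tRNA thiolation enzyme Trmu (-1.60) and Tbrg4 (-1.55), an RNA-binding protein of the FASTK family. Of 4 mitochondrial tRNA synthetases 1 fell (25%), Hars2 (-0.71). Of 7 genes of mitochondrial DNA upkeep 2 fell (28.6%), the polymerase subunit Polg2 (-0.90) and the single-strand binding protein Ssbp1 (-0.73). Of 3 tested nuclear regulators of mitochondrial genes, Myc fell by 0.54, the receptor Esrra rose by 1.08, and the GABP subunit Gabpb1 had a change of -0.04 that was not called.

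The products of the mitochondrial ribosome work with nuclear-encoded respiratory chain subunits. Of 73 tested oxidative phosphorylation genes 28 fell (38.4%) and 10 rose (13.7%), with a median change of -0.14, beside 26.1% and 23.1% of all tested genes. On the deposited scale 35 fell and 7 rose, with median centring 49 and 4, and with spike-in scaling 59 and 2. Of all tested genes 23.7%, 33.1% and 47.9% fell under those 3 scalings, and 26%, 19.2% and 11.4% rose. Uqcrc1 of complex III (-1.10) and Ndufb8 of complex I (-1.03) fell most, and Ndufb2 (1.12) and Cox7a2l (0.94) rose most. Among 40 tested protein genes of the cytosolic ribosome, which translates nuclear messages, 5 fell (12.5%) and 3 rose (7.5%), with a median of -0.03. These counts turned on the scaling: 11 fell and 1 rose on the deposited scale, 27 and 1 with median centring and 36 and 1 with spike-in scaling, so that with spike-in scaling 36 of 40 cytosolic and 58 of 71 mitochondrial ribosomal genes were lower. Under those scalings the median change was -0.11, -0.26 and -0.49 for the cytosolic genes and -0.43, -0.58 and -0.81 for the mitochondrial ones. Rpl39 (-1.22) and Rps3 (-0.35) were the falls of the quantile-normalized values named by rule, and Rpl37a (0.81) and Rps29 (0.33) the rises. Rpl39 rested on nonpermissive replicate 2, without which its change was -0.39 and not called, and it was also not called without permissive replicate 1 (-1.18), while without nonpermissive replicate 1 it was -2.08. Rps3 was not called without nonpermissive replicate 1 (-0.21). Rps29 was not called under any of the other 3 scalings and turned to -0.23 with spike-in scaling. Rpl39, Rps3 and Rps29 were also not called with no limit for dim genes or with no intensity trend in the fit. Differences between these lists and the mitochondrial ribosomal genes were not tested.

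**Figure D4:**
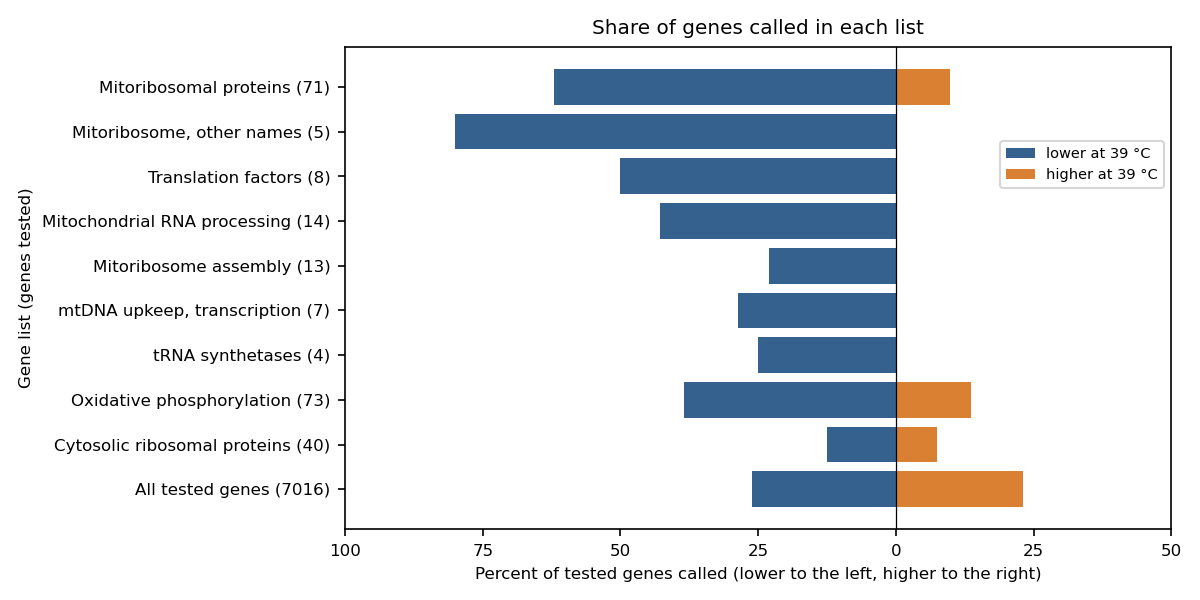
Percent of tested genes in each list called lower (blue, to the left) or higher (orange, to the right) at 39 °C, with the number tested in parentheses. Mitochondrial ribosomal genes reach 62.0% lower and 9.86% higher, cytosolic ribosomal genes 12.5% and 7.5%, and all tested genes 26.1% and 23.1%, all after quantile normalization; with spike-in scaling 36 of 40 cytosolic and 58 of 71 mitochondrial ribosomal genes were lower. Shares of lists with 4 to 14 genes rest on few genes.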

How the data were processed

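Total RNA from 4 samples of RTEC11 cells was labelled and hybridised to Affymetrix rat arrays, per the labels' protocols. The table deposited by the authors gives a linear intensity for each of 15923 probe sets, and the summarising software was not given in the sources used here. From the values, the arrays had been scaled, since the mean after trimming 2% at each end was alike on all 4. After 57 control probe sets had been left out, log2(intensity + 16) was quantile normalized. Fold changes are on that scale and understate the change of dim genes. Symbols came from GEO's platform annotation, of which 12748 probe sets matched the RefSeq table of GRCr8 by Entrez identifier with 0 symbols changed. Probe sets with several genes (312) or none (2771) represented no gene. They did enter the normalization, the dim limit and the setting with every probe set tested on its own. Each gene was represented by its brightest probe set (_x_at only where there was no other), and genes whose mean lay below the 40th percentile of all probe sets were left out.

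Groups were compared with limma 3.58.1 (R 4.3.3), using lmFit and an intensity-trended eBayes with 2 residual degrees of freedom and a median prior of 9.23. Tests were two-sided, and p-values were adjusted by Benjamini-Hochberg over 7016 genes at a threshold of 0.05. The procedure was tested on simulated data, where 77.9% of planted changes of 0.5 and 98.5% of those of 1 were recovered. Of 200 genes called there, 16 had no planted change. The simulated arrays held far fewer changes than the 49.1% of genes called here, so those shares may not carry over. Members and lists were chosen with earlier results of these data known, so lists are described by counts and medians with no test. Values by array were given for the called members with the 6 largest falls and 6 largest rises in each subunit, the brightest and dimmest of each, and those with several probe sets above the dim limit. Each context list is shown by its 2 largest called falls and rises. Same-numbered samples were not shown to share an origin: their deviations correlated at -0.00642 over the tested genes, so the replicate number was a block only in an alternative. Further alternatives were 3 scalings, other pseudocounts (1 and 64) and dim limits, other treatments of probe sets, no trend, and leaving out each array. Figures used matplotlib 3.10.9 (Python 3.11.15).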

Additional observations from a re-analysis of the deposited data

How the results depend on the processing

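The counts of members that fell, 44 in all, 16 in the small and 28 in the large subunit, stayed within 1.5 times under every alternative tried. With no intensity trend in the fit 38 members were lower, 16 small and 22 large subunit genes, and 6 were higher. Leaving out each array in turn gave 35 to 39 members lower, 5 to 7 higher, 14 to 16 small and 21 to 24 large subunit genes lower, and 2639 to 3208 of all genes called. Of the 44, 32 were lower under every alternative in which they were tested, up to 15, and all 44 kept a change below 0, whereas of the 7 that rose 0 were called under all of them and 6 kept a change above 0. The count of rises was 4 with median centring and 0 with spike-in scaling, where the median change of all tested genes was -0.127 and -0.359. The small minus large difference, -0.147, was -0.087 on the deposited, median-centred and spike-in scales. Those scales differ only by a constant for each array, so they must give the same difference and are not separate alternatives here. The difference was -0.055 with Mrps18a and Mrps30 counted as large and -0.217 with all probe sets tested, a setting chosen after seeing the data. It was -0.212 to -0.039 with an array left out. The median change of members minus that of like-bright genes was -0.489 to -0.384 with an array left out. Mrpl51, not called, turned from 0.09 to -0.07 with the mean of its probe sets, -0.23 with spike-in scaling, and ranged from -0.04 to 0.22 with an array left out (-0.02 without nonpermissive replicate 2), and Mrpl53 turned to -0.02 with spike-in scaling. The cause of these shifts was not tested. With the replicate number as a block, 45 members were lower and 7 higher and 3706 of all genes were called, in a fit with 1 residual degree of freedom, and the block does not pair the samples by any label. With 2 arrays a group, their number limits the precision.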
